A study of Homo sapiens with 3 samples.

Results

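The contacts described here are those of 9 genes for cyclic nucleotide phosphodiesterases, *PDE1C*, *PDE2A*, *PDE3A*, *PDE3B*, *PDE4A*, *PDE4B*, *PDE4D*, *PDE5A* and *PDE10A*, in cardiomyocytes (hESC-CMs) that had been derived from a line of human embryonic stem cells. A promoter fragment was a HindIII fragment in the first column of a replicate's deposited calls that holds an annotated transcript start of the gene, and every line with that fragment at either end was taken. This gave 12 promoter fragments for 8 of the 9 genes, out of 19075 promoter fragments in the series, and 97 interactions out of 200587 in the union of 3 biological replicates. *PDE3B* had no promoter fragment in any replicate.

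The hESC-CMs were made from the H9 (WA09) line at passage 32 with a commercial cardiomyocyte kit (media A and B for 2 days each, then 1 day of recovery). They were grown for 6 days without insulin and 2 days in the complete medium, then enriched for 6 days with 4 mM lactate in place of glucose. They recovered in serum for 2 days. After a final 7 days of culture they were fixed in 2% formaldehyde for 10 min. All replicates were of this single condition and of one line, and nothing was compared with untreated or undifferentiated cells. The labels give a purity of at least 80 to 90% by *MYH7* and *TNNT2*, so contacts of other cells in the culture cannot be told apart from those of cardiomyocytes. In promoter capture Hi-C (PCHi-C), stretches of DNA that touch in the nucleus are crosslinked, cut with HindIII and ligated, and the ligation products that carry a promoter are enriched and sequenced. Each call is a pair of fragments with a CHiCAGO score, which grows with the excess of reads over a background set by distance and technical noise. The assay measured DNA contact and not expression, and markers of the cell type could not be checked in it. The replicates held 112473, 109731 and 110740 interactions, and pairs that scored under 5 are not listed, so an unlisted pair is not shown to be absent.

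Phosphodiesterases break down cyclic AMP and cyclic GMP, the second messengers of adrenergic, natriuretic peptide and nitric oxide signalling, and so set how strongly and where in the cell these signals act. In cardiac muscle, cyclic AMP raises the rate and force of contraction through protein kinase A. PDE3A and PDE3B hydrolyse cyclic AMP and are inhibited by cyclic GMP, PDE4A, PDE4B and PDE4D are specific for cyclic AMP, PDE5A is specific for cyclic GMP and is the target of sildenafil, PDE2A is stimulated by cyclic GMP, PDE1C is activated by calcium and calmodulin, and PDE10A accepts both nucleotides. Promoter-interacting regions (PIRs) are the fragments that a promoter fragment was called with.

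The strongest reproducible PIR of each gene that had one is shown by the middle 300 bases of its fragment (GRCh37), so that the sequence at the contact can be read beside its score. Capitals mark matches, on either strand, to AGATAA (the core bound by GATA factors), CTA and TAG set 4 bases apart (MEF2), TCAAGTG (NKX2-5), GGAATG (TEAD) or GGTGTGA (T-box factors). A match is a description of the letters and not of binding.
PDE5A partner, chr4:120968379-120968678, plus strand: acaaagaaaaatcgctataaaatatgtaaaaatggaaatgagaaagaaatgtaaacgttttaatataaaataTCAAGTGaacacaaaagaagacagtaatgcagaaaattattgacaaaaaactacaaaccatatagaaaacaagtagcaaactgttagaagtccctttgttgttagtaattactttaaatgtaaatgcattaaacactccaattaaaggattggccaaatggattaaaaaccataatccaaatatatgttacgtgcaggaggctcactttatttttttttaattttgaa
PDE3A partner, chr12:20068863-20069162, plus strand: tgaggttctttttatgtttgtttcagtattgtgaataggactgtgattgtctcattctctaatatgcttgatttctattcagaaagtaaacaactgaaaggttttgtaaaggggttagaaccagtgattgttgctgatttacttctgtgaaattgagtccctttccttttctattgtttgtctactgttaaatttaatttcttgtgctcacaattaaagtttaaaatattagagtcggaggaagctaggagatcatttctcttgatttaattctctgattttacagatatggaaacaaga
PDE10A partner, chr6:166265386-166265685, plus strand: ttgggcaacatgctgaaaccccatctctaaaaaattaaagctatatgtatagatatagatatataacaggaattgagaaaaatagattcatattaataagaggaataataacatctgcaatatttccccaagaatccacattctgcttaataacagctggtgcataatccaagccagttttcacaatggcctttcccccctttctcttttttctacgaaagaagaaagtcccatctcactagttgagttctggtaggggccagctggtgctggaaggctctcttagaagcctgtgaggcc
PDE4D partner, chr5:58676049-58676348, plus strand: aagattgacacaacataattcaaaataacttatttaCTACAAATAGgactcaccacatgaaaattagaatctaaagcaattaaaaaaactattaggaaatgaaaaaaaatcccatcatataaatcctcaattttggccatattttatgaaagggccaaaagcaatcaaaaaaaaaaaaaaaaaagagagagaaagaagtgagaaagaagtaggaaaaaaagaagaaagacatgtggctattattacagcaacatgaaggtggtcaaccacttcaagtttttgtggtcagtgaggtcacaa
PDE1C partner, chr7:31832644-31832943, plus strand: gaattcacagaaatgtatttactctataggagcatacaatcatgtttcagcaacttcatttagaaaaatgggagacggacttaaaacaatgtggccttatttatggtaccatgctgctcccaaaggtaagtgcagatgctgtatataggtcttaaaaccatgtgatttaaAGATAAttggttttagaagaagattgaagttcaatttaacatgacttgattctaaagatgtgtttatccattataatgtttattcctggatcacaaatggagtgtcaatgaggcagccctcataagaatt

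The *PDE5A* window has a TCAAGTG match, the *PDE4D* window holds CTACAAATAG and the *PDE1C* window AGATAA, while the *PDE3A* and *PDE10A* windows hold none of the letters searched. The MEF2 search allowed any 4 bases between CTA and TAG and not A or T alone, and the *PDE4D* match has CAAA there. Over all 32 PIRs called in all 3 replicates, 8 windows (25.0%) held AGATAA, against 20.8% of the middle windows of 114044 PIRs of the series. The series PIRs were those called in any replicate, so the 2 sets differ in reproducibility for each motif, and no motif was tested. The MEF2 letters were in 2 (6.25% against 5.07%), TCAAGTG in 2 (6.25% against 7.39%), GGAATG in 1 (3.13% against 15.3%) and GGTGTGA in none (0% against 5.77%).

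Of the 97 interactions, 32 were called in all 3 replicates (33.0%, 95% Wilson confidence interval 24.4 to 42.8%), beside 24.0% of all interactions of the series. Another 13 were called in 2 replicates and 52 in 1. The interval covers counting error only, adjoining PIRs of a promoter are not independent, and the share was not tested. The replicates listed 63, 56 and 55 of them, on average 58.0 ± 4.36 (SD, n = 3). All 32 reproducible interactions lay on the same chromosome within 1 Mb of the promoter. Of the 17 longer interactions on the same chromosome (17.5%, against 40.4% for the series) and the 7 with another chromosome (7.22%, against 3.87%), none was called in all 3 replicates. How often such interactions of the whole series were called in all 3 was not counted, so this is not shown to be particular to these genes. The share within 1 Mb was 75.3% over the union, against 55.7% for the series. The median distance was 428 kb over same-chromosome interactions, against 716 kb for the series. It was 415 kb for those in all 3 replicates, against 395 kb for the series, and 627 kb for those in 1 replicate, against 1261 kb. Median scores were 10.1 for interactions in all 3 replicates and 6.00 for those in 1.

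The genes differed widely in the number of PIRs. *PDE5A* had 21, 16 and 15 PIRs in replicates 1, 2 and 3, a mean of 17.3 ± 3.21 (SD, n = 3), and 23 over the union, of which 13 were called in all 3 replicates. *PDE10A* had 16, 14 and 20, a mean of 16.7 ± 3.06, and 27 over the union, of which 10 were in all 3. These ranges overlap, so the order of *PDE5A* and *PDE10A* is not separated from the spread between replicates. *PDE3A* had 11, 12 and 10 PIRs, a mean of 11 ± 1.00, and 17 over the union with 6 in all 3. Every replicate lay below every replicate of *PDE5A* and of *PDE10A*. The *PDE10A* counts add up 2 promoter fragments, however, whereas *PDE3A* and *PDE5A* had 1 each. The *PDE10A* fragment with more PIRs had 11, 11 and 16 alone, which overlaps the range of *PDE3A*. *PDE4D* had 7, 7 and 4, a mean of 6.00 ± 1.73, and 2 of its 13 PIRs were in all 3 replicates. *PDE1C* had 3, 2 and 4 and *PDE2A* had 3, 4 and 2, each a mean of 3.00 ± 1.00, and each meets the range of *PDE4D* at 4. *PDE4A* had 2 PIRs, both from replicate 1, and *PDE4B* had 1, from replicate 2.

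**Figure D1:**
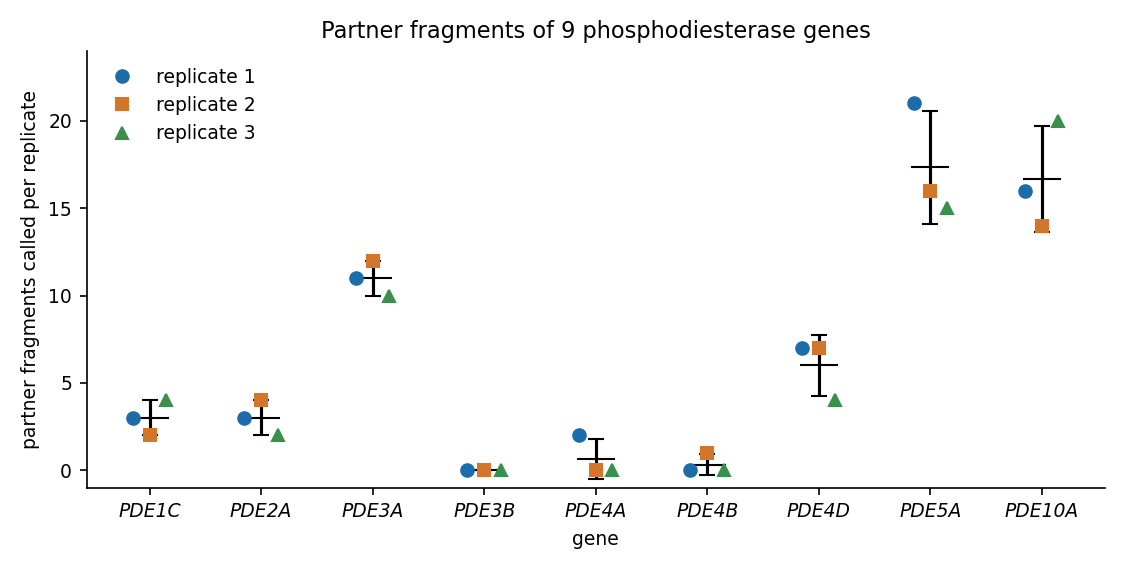
Partner fragments called per replicate (vertical axis, number) for each of the 9 genes (horizontal axis). Symbols are the 3 replicates, horizontal bars the mean and vertical bars the SD. Counts are added over all promoter fragments of a gene. The replicates of *PDE5A* and *PDE10A* sit between 14 and 21, above the 10 to 12 of *PDE3A*, and *PDE3B* stays at 0.

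A PIR in all 3 replicates was present for 5 of the 8 genes with a promoter fragment (62.5%), beside 55.9% of the 15515 protein-coding genes with one. Having a promoter fragment at all, as 8 of 9 genes had (88.9%), was the case for 77.0% of annotated protein-coding genes. Among single promoter fragments, that of *PDE5A* had more PIRs in all 3 replicates than 94.5% of the promoter fragments of the series. The *PDE10A* fragment with more PIRs exceeded 90.3% of them and that of *PDE3A* 84.7%. Of the series' fragments 51.9% had at least 1 such PIR. All 3 *PDE2A* fragments, those of *PDE4A* and *PDE4B* and the distal *PDE4D* fragment had none.

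**Figure D2:**
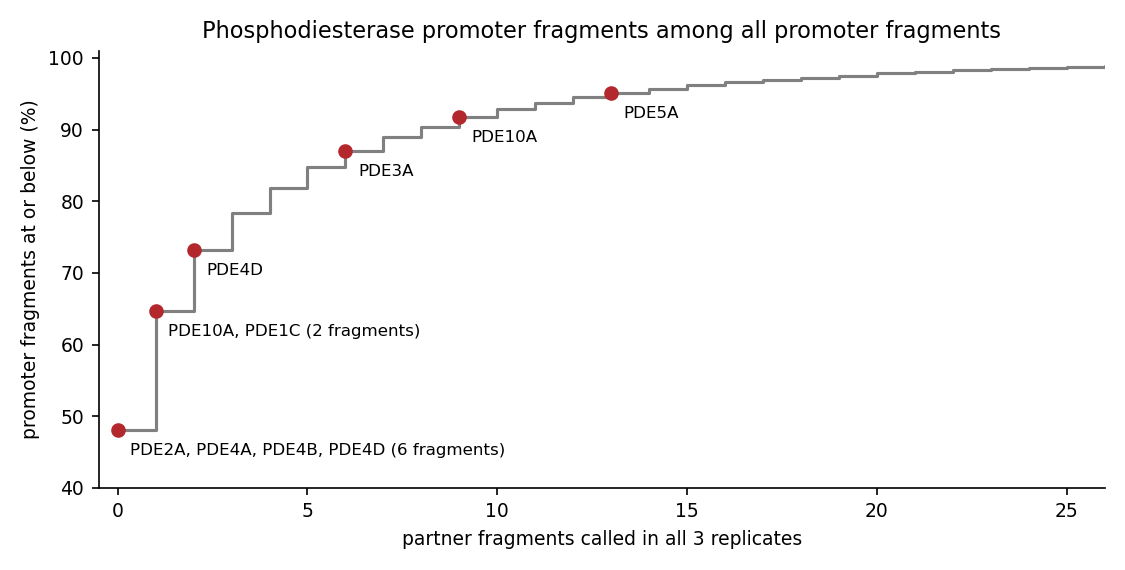
Share of all 19075 promoter fragments (vertical axis, percent, starting at 40) with at most the number of PIRs in all 3 replicates on the horizontal axis. Red points are the 12 phosphodiesterase fragments. *PDE5A* lies at 13 PIRs, the *PDE10A* fragment with more PIRs at 9, *PDE3A* at 6, and 6 fragments lie at 0.

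*PDE5A* (chr4:120415552-120549959, minus strand) encodes the cyclic GMP-specific enzyme. Its promoter fragment, chr4:120545942-120553617, holds the starts of 4 coding transcripts. All 13 reproducible PIRs lay upstream in a single run of adjoining fragments of 33.6 kb, from 120956846 to 120990479, at 408 to 437 kb. Of the 14 HindIII fragments in this run, 13 were called in each replicate and the other, which is 47 bp long, in none. The highest score belonged to the intergenic fragment 120968130-120968928, whose window is printed above, at 23.24, 22.99 and 21.67 (mean 22.6 ± 0.844, SD, n = 3). The fragment 120972862-120975990 scored 20.15, 24.2 and 18.72 (21.0 ± 2.84), and 120975991-120976345 scored 23.68, 17.3 and 19.7 (20.2 ± 3.22). The replicate ranges of these 3 fragments overlap, so no single summit was resolved. Scores at the edges of the run were lower, at 7.68, 7.19 and 6.73 for the fragment nearest to *PDE5A* and 9.21, 9.39 and 7.27 for the farthest, and neither edge reached the range of the 3 leading fragments.

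The far end of the run covers *MAD2L1*, a gene of the spindle checkpoint, and 4 of the 13 PIRs overlap its exons. The farthest PIR is the promoter fragment of *MAD2L1* itself, 120984042-120990479, with a mean score of 8.62 ± 1.18 (SD, n = 3). The summed score of the run was 193, 192 and 180 in replicates 1, 2 and 3, a mean of 188 ± 7.04. Beyond it, 3 *PDE5A* PIRs were called in 2 replicates, all within 399.6 to 441 kb upstream, and 7 in 1 replicate. Among the latter was a fragment in an intron of *KLHL2* at a distance of 45598 kb with a score of 14, called by replicate 1 alone. One PIR lay downstream, over an exon of *FABP2*, the intestinal fatty acid binding protein, also in replicate 1 alone at 6.13.

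Other promoters were called with the same run. The fragment with the start of the small nucleolar RNA *SNORA11*, chr4:120488453-120492782, lies within the *PDE5A* gene 59.2 kb from its promoter fragment. It was called with all 13 PIRs in at least 1 replicate and with 10 of them in all 3. Over these 10, *SNORA11* had mean scores of 10.8, 11.4 and 10.1 (10.8 ± 0.631, SD, n = 3) and *PDE5A* 16.8, 16.5 and 15.2 (16.2 ± 0.842). *PDE5A* was higher in 3 of 3 replicates without overlap, but a paired exact test of 3 replicates cannot give a two-sided p below 0.25. A promoter fragment with no start in the annotation used here, 120243364-120244179, shared 6 PIRs in all 3 replicates with *PDE5A*, at 9.89 ± 0.978 against 17.4 ± 0.342. The promoter fragments of *C4orf3* and of *NDNF*, which encodes a secreted neurotrophic factor, each shared 1, the *MAD2L1* promoter fragment.

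**Figure D3:**
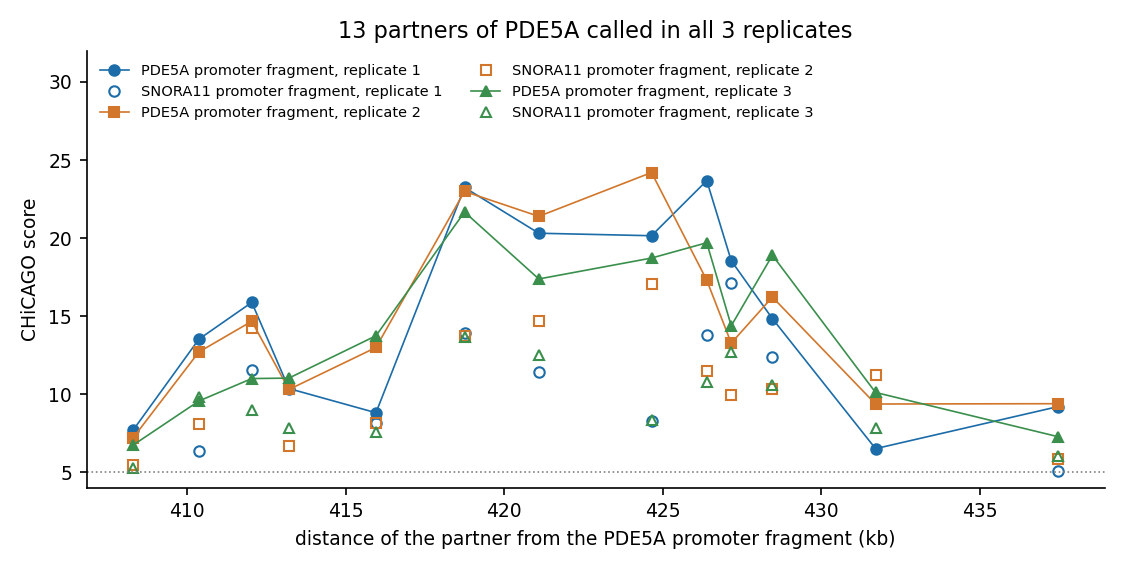
CHiCAGO score (vertical axis, listed from 5) of the 13 PIRs of *PDE5A* called in all 3 replicates against their distance from the *PDE5A* promoter fragment (horizontal axis, kb). Filled symbols joined by lines are *PDE5A*, open symbols the *SNORA11* fragment, with 1 colour per replicate; *PDE5A* scores peak between 419 and 426 kb and fall towards both edges.

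*PDE3A* (chr12:20521471-20841517, plus strand) encodes the cyclic GMP-inhibited enzyme that is the target of milrinone in the heart. Its promoter fragment, chr12:20521213-20524412, also holds a start of the antisense gene *PDE3A-AS1*, and contacts of the fragment cannot be assigned to either gene. All 17 PIRs lay upstream, in the interval between *PDE3A* and *AEBP2*, which encodes a Polycomb cofactor, or at *AEBP2*. The 6 reproducible PIRs formed a near run of 4 adjoining fragments at 452 to 456 kb (20066703-20071924) and a far run at 612 to 629 kb (19893645-19912040), 155 kb apart. The highest score, over an intron of a noncoding gene, was that of 20068779-20069246 at 12.61, 12.95 and 14.1 (13.2 ± 0.781, SD, n = 3). Its neighbour 20067144-20068778 scored 12.21, 11.25 and 10.62 (11.4 ± 0.801), below it in each replicate. The third by mean score, 19910478-19912040, stands at the near edge of the far run, with 8.76, 9.72 and 10.33 (9.60 ± 0.791), and its range lies below those of both fragments of the near run.

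The near run of *PDE3A* consists only of adjoining PIRs in all 3 replicates, so it was called in full by definition. Its summed scores were 39.59, 39.17 and 41.63. The adjoining fragment 20061398-20066702, called in replicate 1 alone, falls outside it for the same reason. The far run joins 2 PIRs in all 3 replicates across fragments called in fewer replicates or in none. Of its 11 fragments, 2 were in all 3 replicates, 3 in 2, 2 in 1 and 4 in none, yet its summed scores were 30, 32.47 and 32.42. The farthest reproducible PIR, 19893645-19894642 at 629 kb, scored 8.92, 5.5 and 5.14. The promoter fragment of *AEBP2* itself, at 964 kb, was called in replicate 3 alone at 7.21. A fragment of the far run, 19895708-19897123, was called in 2 replicates for *PDE3A* and in all 3 for the promoter fragment of *SLCO1B3*, a hepatic anion transporter gene. No PIR that *PDE3A* had in all 3 replicates was called in all 3 for another promoter fragment.

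*PDE10A* (chr6:165740776-166401605, minus strand) encodes a dual-substrate enzyme best known from the striatum. It had 2 promoter fragments 239 kb apart, and 5 of its 40 annotated transcripts start on them. One of them, chr6:166073032-166081690, is called the main fragment here only because it had more PIRs. It holds 4 starts inside the gene, whereas the unlisted fragment 166398799-166402736 at the 5′ end of the gene holds 24. The main fragment had 9 PIRs in all 3 replicates, all inside the gene and on both sides of the fragment. The upstream run of 6 adjoining fragments, 166251542-166273148, lies at 178 to 194 kb, and the downstream PIRs, 165847674-165870244, at 207 to 229 kb. The leading fragment upstream, 166265114-166265958, scored 11.87, 9.86 and 13.77 (11.8 ± 1.96, SD, n = 3). The leading fragment downstream, 165849974-165850627, scored 12.67, 10.42 and 9.44 (10.8 ± 1.66), and the ranges overlap. The third by mean score, 165847674-165849973, over an exon of *PDE10A*, scored 11.59, 9.91 and 10.66 (10.7 ± 0.842). The downstream fragment that was not called in a replicate is 19150 bp long and was called on the merged replicates at 5.92.

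The second fragment of *PDE10A*, chr6:166308469-166324092, holds the start of 1 noncoding transcript and had 5, 3 and 4 PIRs. Its 7 PIRs other than a fragment near *PLG* lay upstream at 165 to 197 kb, in the interval between *PDE10A* and *TBXT*, the gene for the mesodermal factor brachyury. One of them, 166504870-166506680, was in all 3 replicates, at 5.16, 6.04 and 5.78 (5.66 ± 0.452, SD, n = 3). The PIR at 166510483-166516522, a promoter fragment of noncoding genes, was called in 2 replicates at 5.81 and 6.31. The fragments of *PDE10A* shared no PIR and were not called with each other. The main fragment had 11, 11 and 16 PIRs against 5, 3 and 4, a difference of 8.67 ± 3.06 (SD, n = 3), higher in 3 of 3 replicates (exact paired permutation test, two-sided p = 0.25, the smallest that 3 pairs can give). A fragment with the start of *RNU6-730P*, 52.8 kb from the main fragment and inside the gene, shared 3 reproducible PIRs with it, at 6.15 ± 0.272 against 11.1 ± 0.999 for *PDE10A*.

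*PDE4D* (chr5:58264865-59817947, minus strand) spans 1553 kb and encodes a cyclic AMP-specific enzyme with many isoforms. Its proximal fragment, chr5:58332508-58336968, holds 2 starts of *PDE4D*, 1 of them coding, and a start of another annotated gene, so its contacts cannot be assigned to either. It had 4, 4 and 3 PIRs, all upstream of this start and therefore inside the longer transcripts of the gene. Those in all 3 replicates were 58675899-58676498 at 341 kb, with 5.6, 5.59 and 5.71 (5.63 ± 0.0666, SD, n = 3), and 58424577-58426124 at 90.6 kb, with 5.85, 5.24 and 5.47 (5.52 ± 0.308). Both are intronic and their score ranges overlap. These scores stand near the listing limit of 5 and below those of each leading PIR of *PDE5A*, *PDE3A* and *PDE10A*. With a score of at least 7 no reproducible PIR of *PDE4D* was left.

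The distal fragment of *PDE4D*, chr5:59817832-59818813, holds the start of 1 noncoding transcript and had 3, 3 and 1 PIRs, none of them in more than 1 replicate. It shared no PIR with the proximal fragment. The proximal fragment had more PIRs in 3 of 3 replicates (difference 1.33 ± 0.577, exact paired permutation test, two-sided p = 0.25). Of the 7 PIRs of the distal fragment, 5 lay on chromosome 19 within 47.9 kb, between *ZNF254* and *UQCRFS1*, with scores from 6.6 to 13.45. Their lengths were 171, 172, 173, 333 and 564 bp. The shortest 3 are printed because they resemble each other, with the HindIII remainder in capitals.
Fragment chr19:24514347-24514519, plus strand: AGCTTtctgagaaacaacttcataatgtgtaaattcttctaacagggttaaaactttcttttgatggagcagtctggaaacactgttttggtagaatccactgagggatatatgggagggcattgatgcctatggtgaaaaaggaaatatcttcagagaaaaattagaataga
Fragment chr19:24521691-24521862, plus strand: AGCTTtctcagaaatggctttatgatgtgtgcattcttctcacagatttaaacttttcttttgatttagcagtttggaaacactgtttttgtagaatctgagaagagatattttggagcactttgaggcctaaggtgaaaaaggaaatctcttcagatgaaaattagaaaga
Fragment chr19:24562073-24562243, plus strand: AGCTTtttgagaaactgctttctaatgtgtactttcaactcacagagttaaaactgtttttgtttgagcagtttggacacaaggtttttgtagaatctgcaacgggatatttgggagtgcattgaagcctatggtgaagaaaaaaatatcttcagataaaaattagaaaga
Any pair of the 5 fragments aligned at 76.9 to 84.3% identity over the shorter one, whereas the best alignment of each to the distal promoter fragment reached 52.8 to 55.2%. In the series, 27 promoter fragments were called with this stretch of chromosome 19 in 81 interactions, and none of these was in all 3 replicates. The distal *PDE4D* fragment had 5 of them and the most connected promoter fragment 11. The part that repeated sequence has in these calls was not tested.

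**Figure D4:**
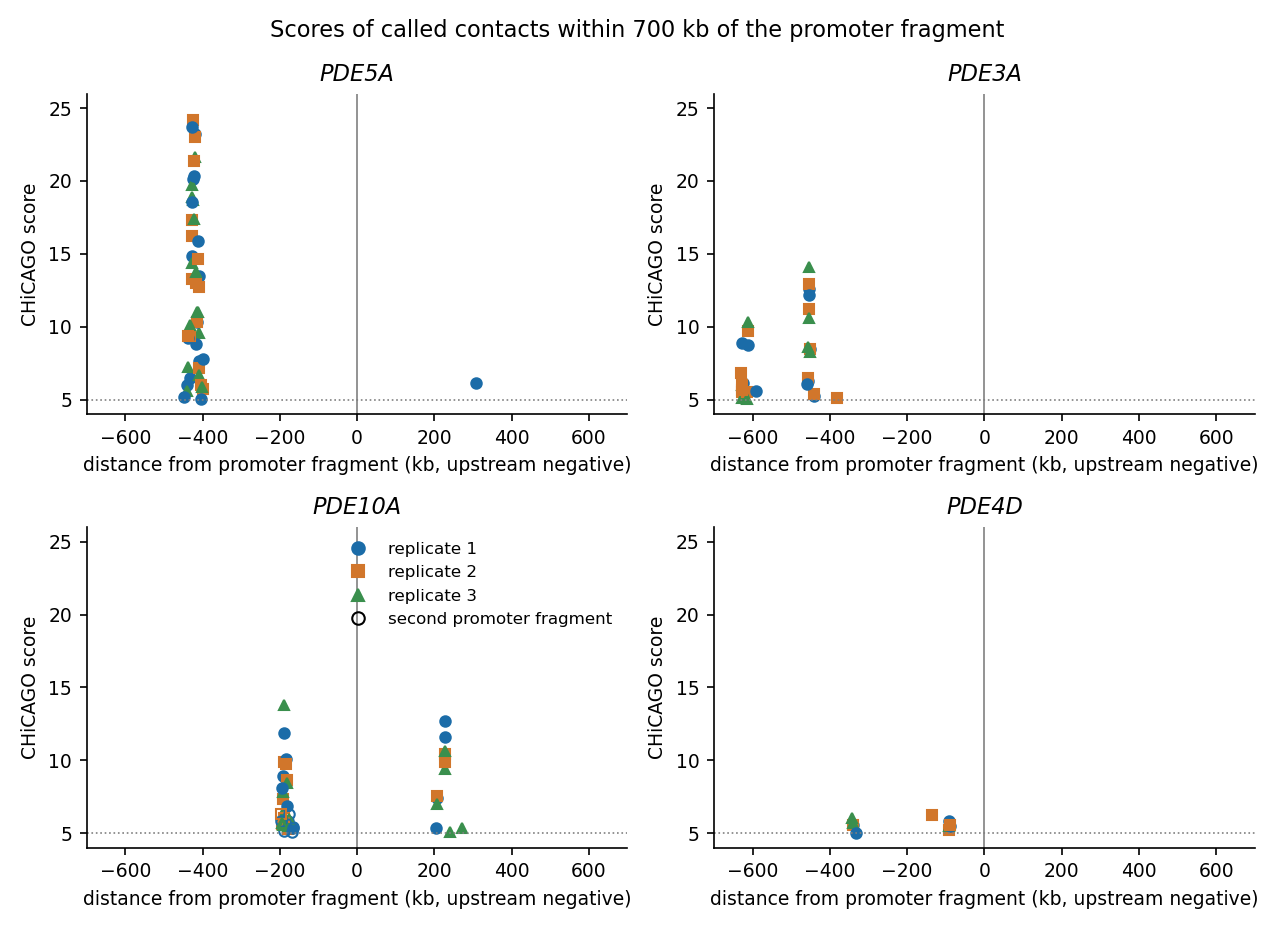
CHiCAGO score (vertical axis) of the contacts called near the promoter fragments of *PDE5A*, *PDE3A*, *PDE10A* and *PDE4D* (proximal fragment only), against distance (horizontal axis, kb, upstream of the start negative). Symbols are replicates, open symbols the second *PDE10A* fragment, and the dotted line is the listing limit of 5; contacts cluster about 420 kb upstream for *PDE5A*, at 2 upstream positions for *PDE3A* and on both sides for *PDE10A*.

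*PDE1C* (chr7:31790793-32467743, minus strand) encodes the calcium and calmodulin-activated enzyme. A single one of its 12 transcripts starts on a promoter fragment, chr7:32327511-32340830. All 7 PIRs lay downstream, and 1 was called in all 3 replicates. It is 31830858-31834729, an intronic fragment of *PDE1C* at 501 kb that is also the promoter fragment of a noncoding gene. Its scores were 7.54, 22.99 and 10.82 (13.8 ± 8.14, SD, n = 3), and the high value of replicate 2 sets the mean, which is 9.18 without it. The other 6 PIRs were each called in 1 replicate at 5 to 8.05, among them the promoter fragment of *PPP1R17*, a phosphatase inhibitor gene, in replicate 2 at 6.76.

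*PDE2A* (chr11:72287185-72385635, minus strand) encodes the cyclic GMP-stimulated enzyme. It had 3 promoter fragments with 2, 2 and 3 PIRs over the union, and the fragments shared none. In replicates 1, 2 and 3 the most 3′ fragment had 1, 1 and 0 PIRs, the middle one 1, 2 and 0 and the most 5′ one 1, 1 and 2. The mean difference was -0.33 for the most 3′ minus the middle, -0.67 for the most 3′ minus the most 5′ and -0.33 for the middle minus the most 5′ (exact paired permutation test, two-sided p = 1 for each). The most 3′ fragment also holds starts of *LINC01537* and *PDE2A-AS2*. No PIR was in all 3 replicates. The middle fragment, 72298402-72327999, which also holds the microRNA gene *MIR139*, was called with the promoter fragment of *ARAP1*, a regulator of small GTPases, at 83.6 kb in replicates 1 and 2 (5.36 and 8.73). The fragment at the 5′ end of the gene, 72383809-72390195, was called with an intergenic fragment at 199 kb in replicates 2 and 3 (5.14 and 6.86). Both pairs were also called on the merged replicates, at 8.09 and 8.19.

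*PDE4A* and *PDE4B* encode cyclic AMP-specific enzymes and had the fewest calls. The *PDE4A* fragment, chr19:10516027-10539124, also holds a start of *CDC37*, a kinase chaperone gene. It was called in replicate 1 with the promoter fragment of *MRPL4* at 156 kb (5.51) and with a fragment in an intron of *POU2F2* at 32117 kb (7.73). The *PDE4B* fragment, chr1:66255529-66266747, was called in replicate 2 with 1 fragment at 20524 kb (10.11). None of these 3 pairs was called on the merged replicates. *PDE3B*, the insulin-responsive relative of *PDE3A*, was listed only on the merged replicates, with 1 PIR in an intron of *CALCB* at 432 kb and a score of 5.11.

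Inside the gene itself lay 21 of the 97 PIRs (21.6%, 95% Wilson interval 14.6 to 30.8%, 26.4% ± 1.24 of the calls of a replicate, SD, n = 3). They belonged to *PDE10A* (13), *PDE4D* (6) and *PDE1C* (2), while *PDE5A* and *PDE3A* had none there. Of these 21, 12 were in all 3 replicates. Over all protein-coding genes with a promoter fragment, 4.20% of PIRs lay inside the gene, counting an interaction once per gene, and 7.66% of those in all 3 replicates. *PDE10A*, *PDE4D* and *PDE1C* span 661, 1553 and 677 kb, and the part that gene length has in these shares was not tested. Relative to the direction of transcription 64 PIRs lay upstream of the promoter fragment and 26 downstream, and of the reproducible ones 28 and 4. Over all protein-coding genes the shares were 47.4% upstream and 48.9% downstream, and 47.7% and 50.9% for interactions in all 3 replicates. The 13 adjoining PIRs of *PDE5A* and the 6 of *PDE3A* make up most of the 28. A PIR was itself a promoter fragment in 10 interactions (10.3%, 95% Wilson interval 5.70 to 17.9%), beside 9.59% in the series, and 2 of these were in all 3 replicates, *PDE5A* with *MAD2L1* and *PDE1C* with the noncoding gene in its own intron.

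Many annotated starts of these genes lay outside the listed fragments. The 153 transcripts start on 65 HindIII fragments, of which 12 were promoter fragments in a replicate, 1 on the merged replicates only and 52 at neither end of a call in any replicate. Of these 52, 2 were PIRs on the merged replicates and 50 were in no call. Of the transcripts, 33 start on promoter fragments. A single unlisted fragment holds 24 of the 40 *PDE10A* starts, and another holds 6 of the 12 of *PDE1C*. *PDE4D* had 13 unlisted start fragments of 15 and *PDE4B* 8 of 9. A fragment can be unlisted because it was not captured or because no pair scored 5, and these cannot be told apart here.

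Other genes of cyclic nucleotide signalling were counted from fixed lists, with no test. Of 15 other phosphodiesterase genes, 12 had a promoter fragment and 5 of these (41.7%) a PIR in all 3 replicates, beside the 55.9% of all protein-coding genes. *PDE11A* had 5 such PIRs on 1 promoter fragment and *PDE6D* 4 over 2 promoter fragments. Of 14 genes for effectors of the nucleotides, such as the subunits of protein kinase A, 11 had a promoter fragment and 9 (81.8%) a PIR in all 3, led by *PRKACG* with 43 and *POPDC3* with 25. Of 6 genes for anchoring proteins, which tether protein kinase A, 3 had a promoter fragment and 1, *AKAP12*, had PIRs in all 3 (43). The *AKAP12* count is over 2 promoter fragments, whereas *PRKACG* and *POPDC3* had 1 each. Of 5 genes for enzymes that make cyclic GMP, 4 had a promoter fragment and all 4 a PIR in all 3, led by *NPR1*, a natriuretic peptide receptor, with 20, and by *GUCY1A1* and *GUCY1A2*, subunits of the nitric oxide receptor, with 7 each.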

How the data were processed

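The calls used were those of 3 replicates, labelled biological, in 1 group, and those made on the merged replicates. Per the methods, the authors aligned and filtered the reads with HiCUP on GRCh37. Calling was by CHiCAGO with its defaults, and the versions of both are not given in the sources used here. The deposited values are CHiCAGO scores from 5 up, to 2 decimals. They were not recomputed, and read counts and depth were not used here.

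Transcript starts came from GENCODE 44 lifted to GRCh37. All 109 fragments of the genes and their PIRs had HindIII sites at both ends. Interactions were pairs of fragments without regard to order, and distances lie between midpoints. Runs join PIRs that were called in all 3 replicates and lie at most 20 kb apart. Motifs were searched in the middle 300 bp of PIRs at least that long. Sequence identity came from edlib 1.3.9.post1. Intervals are 95% Wilson intervals and cover counting error only. SDs are between replicates. With 1 group there was no test between conditions. Alternative promoters of a gene (5 pairs, of which none could pass the threshold with 3 replicates) were compared within replicates with an exact paired permutation test.

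Named PIRs were, among those in all 3 replicates, the 3 with the highest mean score per gene and the farthest, and also promoter fragments in at least 2 replicates; others named were chosen after their values were seen. The genes and lists were chosen with earlier results of these data known. The counting was tested on simulated calls: 216 of 216 interactions and a share of 33.8% in all 3 replicates were recovered. Python 3.11.15, numpy 2.4.6, scipy 1.17.1 and matplotlib 3.10.9 were used.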

Additional observations from a re-analysis of the deposited data

Results flagged for a closer look

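The calls on the merged replicates list pairs that no single replicate listed. Genes with more than 3 such pairs are given here. This limit is a fixed setting and not a statistical bound, because the pairs are absent from each replicate by definition. *PDE10A* had 17 such interactions, at scores of 5.34 to 7.01 and distances of 142 to 239 kb, 13 of them inside the gene. *PDE3A* had 13, at 5.07 to 6.16. They lay 259 to 622 kb upstream, except for 1 inside the gene, which lay downstream of the promoter fragment at 227 kb. *PDE4D* had 7, at 5.46 to 7.88 and 86.0 to 340 kb, all inside the gene. Merging pools the reads of the replicates before calling, and the part this has in each call was not tested.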

How the results depend on the processing

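The deposited scores start at 5, and raising the minimum to 10 changed most values. With a minimum of 7 fewer values changed. The median distance was then 426 kb, the share to promoter fragments 11.6% and the median strongest score 13.5. That minimum gave 4 genes with a PIR in all 3 and a *PDE10A* promoter difference of 7.33. At a score of at least 7, 43 interactions of the genes were left, 51.2% of them in all 3 replicates and 23.3% inside the gene, the median PIRs per gene fell from 7 to 3, and 12 of the listed pathway genes in place of 19 had a PIR in all 3. At a score of at least 10, the values were 22 interactions, 45.5% in all 3, 4.55% to promoter fragments and a median of 1 PIR per gene. Genes with a PIR in all 3 were 2 in place of 5, and the median strongest score was 17.9 over these 2 in place of 13.2 over the 5. The same setting gave 10 pathway genes and a *PDE10A* promoter difference of 2.33 in place of 8.67. The merged replicates gave a median distance of 336 kb, 39.4% inside the gene and 5.77% to promoter fragments. Their median strongest score was 11.1, which also takes in *PDE2A* and *PDE3B*, or 21.05 for the same pairs as in the 13.2. By gene, the strongest score was higher on the merged replicates for *PDE3A*, *PDE4D*, *PDE5A* and *PDE10A* and lower for *PDE1C*. Within 1 Mb, 43.8% were in all 3, the median distance was 410 kb, 28.8% lay inside the gene and 12.3% were promoter fragments. Without promoter fragments as PIRs, 22.99% lay inside the gene. With protein-coding starts only, the distance was 435 kb and 25.6% lay inside the gene. Counting a PIR within 5 kb as a match put 51.5% in all 3. Leaving out each replicate, with both others required, gave 43.9 to 46.9% in both and distances of 419 to 427 kb. The share inside the gene was 22.2 to 24.4%. Strongest scores were 12.2 to 12.8, which take in *PDE2A* where replicate 1 or 3 is left out. Fewer replicates required and fewer pairs kept follow from how these settings are built; beyond that, the cause was not tested. The settings for pathway genes and alternative promoters were chosen after seeing the data. Of 207 values for single genes under the alternatives, 160 stayed within 1.5 times (counts) or 1 SD between replicates (scores) of the value reported. The other 47 did not, among them 12 at a score of at least 10 and 8 at a score of at least 7. The 160 take in counts of 0 that stayed at 0, such as every count in all 3 replicates for *PDE3B*. They also take in values that a setting could not alter. For the *PDE1C* score the SD was 8.14, a wide limit. The tally is therefore not a measure of robustness. No paired analysis was possible because, with 1 group, there were no groups to pair; the promoter comparisons pair fragments within a replicate.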

Other observations

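Pairs listed on the merged replicates alone were fewer for the other genes. *PDE2A* had 3, at 5.27 to 6.16, of which 1 joined its 3′ fragment to the *ARAP1* promoter fragment that its middle fragment was called with in 2 replicates. *PDE5A* had 1, at 5.64 and 442 kb, just beyond the *MAD2L1* end of its run. *PDE1C*, *PDE4A* and *PDE4B* had none.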
